A study of Mus musculus with 18 samples.

Results

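The machinery that silences and degrades RNA is itself encoded by RNAs that Argonaute can hold. Here the Ago2 binding sites of 3 of its gene groups were followed in mouse colonic epithelium: the Argonautes, the Tnrc6 scaffolds and the decay helicase Upf1. The members were all merged peaks whose deposited gene label was Upf1, began with Tnrc6, or was Ago and a digit. These were 14 of 5554 merged peaks, in 5 of the 2568 genes with a peak: 7 in Tnrc6a, 3 in Tnrc6b, 2 in Ago2, 1 in Ago1 and 1 in Upf1. No merged peak carried the label Tnrc6c, Ago3 or Ago4.

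Binding was measured by HEAP, a form of CLIP-seq in which Ago2 fused to a Halo tag is crosslinked to RNA by UV light, captured on a Halo-binding resin and digested to release the RNA it held. The tested mice were Halo-Ago2/+; Fabp-Cre/+; K-Ras-G12D/+ and thus carried 1 oncogenic K-Ras allele (G12D), and the controls were Halo-Ago2/+; Fabp-Cre/+ with wild-type K-Ras (WT). All were C57BL/6 mice aged 8 to 12 weeks, so the Halo-Ago2 allele and the Cre driven by a Fabp promoter were shared by both groups. Scraped distal colon was minced and exposed 3 times to 400 mJ per square centimetre. Each genotype had 3 pulldown mRNA libraries and 3 miRNA libraries, numbered 1 to 3, and the labels do not say that each library is 1 mouse. P-values therefore measure the spread between libraries, which may be technical. The input control libraries of the series are not used here. A change in a peak and a change in the amount of its transcript therefore cannot be told apart, nor can fewer cells of a type and less RNA per cell.

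Argonaute proteins carry a miRNA whose seed, the bases next to its 5′ end, pairs with sites in target RNAs. The Tnrc6 proteins, also called GW182, bind Argonaute and recruit the deadenylase complexes CCR4-NOT and PAN2-PAN3, which shorten the poly(A) tail before the cap is removed. Upf1 is an RNA helicase at the centre of nonsense-mediated decay, which removes transcripts with early stop codons.

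The miRNAs shown first for these sites are those with an 8-mer match, the longest seed match in the deposited annotation. By the usual definition, it pairs with the whole seed and has an A opposite the first base of the miRNA. Shown here, 5′ to 3′, is the most abundant miRNA of 5 families annotated with such a match at tested peaks of Upf1, Tnrc6b, Ago1 and Tnrc6a. An annotated match does not show which miRNA was held at a site, and Tnrc6a peak 6 has 8-mer matches to other families too. Capitals mark the seed, bases 2 to 8, and the sequences are from RefSeq (GRCm38.p6).
let-7b-5p (Upf1, intron): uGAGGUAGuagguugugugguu
miR-93-5p (Tnrc6b peak 1, exon): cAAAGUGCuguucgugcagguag
miR-210-3p (Tnrc6b peak 3, exon): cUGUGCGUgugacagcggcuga
miR-182-5p (Ago1, 3′ UTR): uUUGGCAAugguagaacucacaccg
miR-26a-5p (Tnrc6a peak 6, 3′ UTR): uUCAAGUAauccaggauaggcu

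Several annotated matches at 1 peak were near copies of one another. The seeds of the let-7 and miR-196 families, both annotated at the Upf1 peak, share the 6 bases AGGUAG. The seeds of miR-182-5p and miR-96-5p, both annotated at the Ago1 peak, share UUGGCA and differ in the last base:
miR-182-5p: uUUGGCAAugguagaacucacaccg
miR-96-5p: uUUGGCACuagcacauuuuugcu
Whether such a pair of matches is 1 stretch of RNA listed under both families was not tested.

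Pulldown depth was uneven, with 148927, 723937 and 247358 reads in merged peaks in G12D libraries 1 to 3 against 100978, 54401 and 148770 in WT libraries 1 to 3. The miRNA libraries held 337788 to 433245 reads in G12D and 437439 to 535932 in WT. At most 177 of the 5554 peaks were at 0 reads in a G12D library, against 1294 to 1854 in a WT library. The median log2 fold change over all 4438 tested peaks was 1.05 in favour of G12D, and the peak values below are to be read against that shift. Another scaling moved it to between 0.16 with quantile normalization and 1.36 after centring on peaks in both genotype lists. Of 15 markers of colonic epithelium, 13 had a peak, and their 103 peaks summed to between 6853 and 8900 normalized reads in G12D libraries and between 5321 and 6970 in WT libraries. None of 11 genes of stroma and smooth muscle and none of 10 genes of blood and endothelium had a peak.

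All 14 peaks overlapped a peak called in the G12D list and none overlapped one in the WT list, with at least 1 shared base counted as overlap. Among the 5448 annotated peaks, 77.6% were in the G12D list only, 15.1% in both and 7.36% in the WT list only. Where a peak is called in 1 genotype, part of its direction is set by that choice: the median log2 fold change was 1.68 over the 3166 tested peaks in the G12D list only and -0.45 over the 828 in both lists. Of the 14 peaks, 8 lay in exons, 5 in 3′ UTRs and 1 in an intron, that is 57.1%, 35.7% and 7.14%. Among the annotated peaks these shares were 31.4%, 54.7% and 8.13%. An 8-mer match was annotated at 8 of the 14 peaks (57.1%, against 30.0% of annotated peaks), and a match of at least 7 bases at 12 of 14 (85.7%, against 71.7%). Every peak lay in the RefSeq gene of its label and in no other gene.

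The filter of at least 5 normalized reads on average over the 6 libraries passed 10 of the 14 peaks, and limma with Benjamini-Hochberg adjustment over all 4438 tested peaks called 4 of these higher in G12D, at a threshold of 0.05: the Upf1 peak, Tnrc6b peak 3, the Ago1 peak and Tnrc6a peak 6. None was called lower. Peaks are numbered along each gene by coordinate. The WT means of the Upf1 peak, Tnrc6b peak 3 and the Ago1 peak were 2.98, 3.82 and 1.67 normalized reads, under 5. These peaks thus passed the filter only through their G12D reads, which sets part of their direction. Of all tested peaks, 36.2% were called higher and 12.7% lower (48.9% either way), so 4 of 10 is near the background. Of the tested peaks in the G12D list only, where all 14 peaks fall, 47.0% were called higher and 0.66% lower. The lack of lower calls therefore says little. The 10 peaks had a median log2 fold change of 0.96 and ranged from -1.09 to 4.93. That median is below those of all tested peaks and of tested peaks in the G12D list only (1.68). All 3 G12D libraries lay above all 3 WT libraries at 4 of these 10 peaks, against 43.9% of all tested peaks, and below them at 1 of the 10, against 15.2%. The 5 without overlap compare with 59.1% of all tested peaks.

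**Figure D1:**
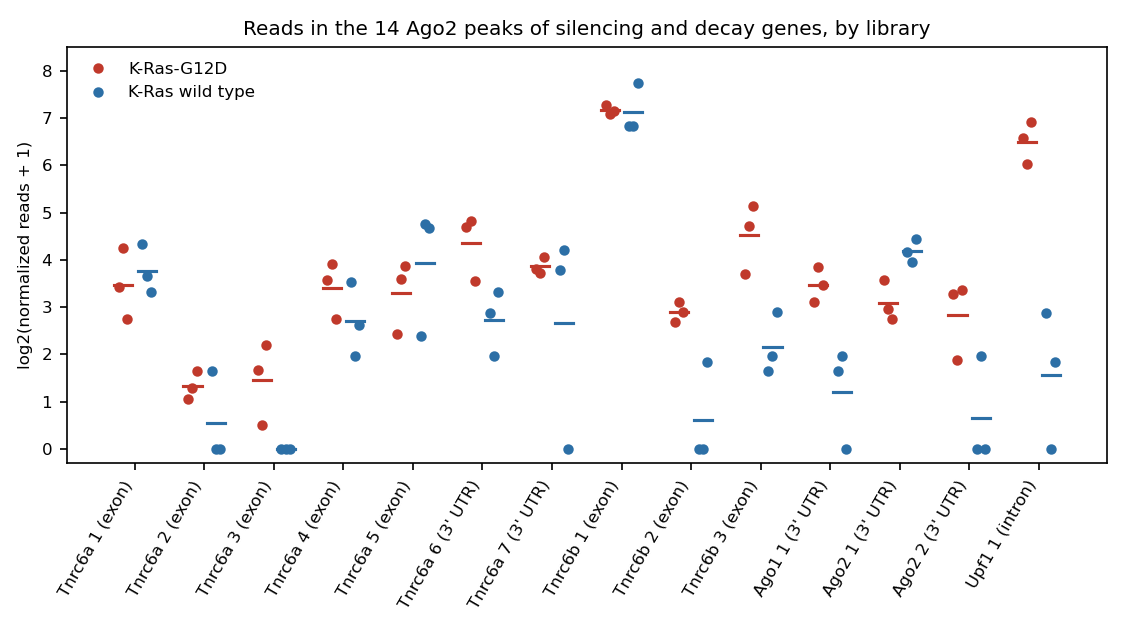
Reads in each of the 14 peaks, as log2(normalized reads + 1), with 1 point per library, bars at the means of 3 libraries, and G12D (red) left of WT (blue). The Upf1 peak has the widest gap between the genotypes, the first Tnrc6b peak is the highest in both genotypes and overlaps between them, and the first Ago2 peak is the only 1 of the 14 with all 3 G12D libraries below all 3 WT libraries.

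Upf1 held the peak with the widest difference. It is annotated as intronic, at chr8:70333617-70333670 on the minus strand (GRCm38), 2124 bases from the 3′ end of a gene of 21931 bases. The G12D libraries had 93.8, 64.0 and 119.9 normalized reads (86, 310 and 167 reads), against 6.37, 0 and 2.58 in the WT libraries (3, 0 and 2 reads). The lowest G12D library was thus far above the highest WT library, at 92.6 ± 28.0 and 2.98 ± 3.20 normalized reads (SD, n = 3 each). The log2 fold change was 4.93 ± 0.68 (SE, limma adjusted p = 0.000304), which is 3.88 above the median of all peaks. With the reads of each genotype pooled and set against its scaled depth, the G12D rate was 25 times the WT rate, with a 95% interval of 10.7 to 77.4 that covers counting error only.

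The Upf1 peak carried an 8-mer match to the let-7/miR-98 family, a family of miRNAs known to repress Ras and other growth genes. It also carried a 6-mer match to miR-196. Of 226 tested peaks with a let-7 8-mer, 1 had a larger log2 fold change, as did 1 of 275 tested intron peaks and 9 of all 4438. The annotation class moved with the result: the median log2 fold change was 2.70 over intron peaks (2.51 with genotypes at 0 reads set to a floor of 3 counts), and 180 of 275 (65.5%) were called higher. It was 2.89 (2.86 with that floor) over the 33 intron peaks with a let-7 8-mer, of which 28 were called higher, and 0.89 over all peaks with a let-7 8-mer. Of all tested peaks with a let-7 8-mer, 37.2% were called higher, against 36.2% of all tested peaks. The part of the class in the Upf1 value was not tested. Of the 275 tested intron peaks, 66 were at 0 reads in all libraries of 1 genotype.

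The matched miRNA did not differ detectably in the same way. Ago2-held let-7b-5p, the most abundant member of the family, had 4071, 5454 and 3430 normalized reads in G12D libraries against 4650, 3268 and 5040 in WT libraries. These overlap, at a log2 fold change of -0.0028 ± 0.23 (SE, limma adjusted p = 0.996), and 0 of the 8 tested members of the family were called. Summed over the family, Ago2 held 13715 ± 3849 normalized reads in G12D and 12185 ± 2703 in WT (SD, n = 3 each). Over all 254 tested miRNAs 15.7% were called, 9.06% higher and 6.69% lower, and the median log2 fold change was 0.11.

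**Figure D2:**
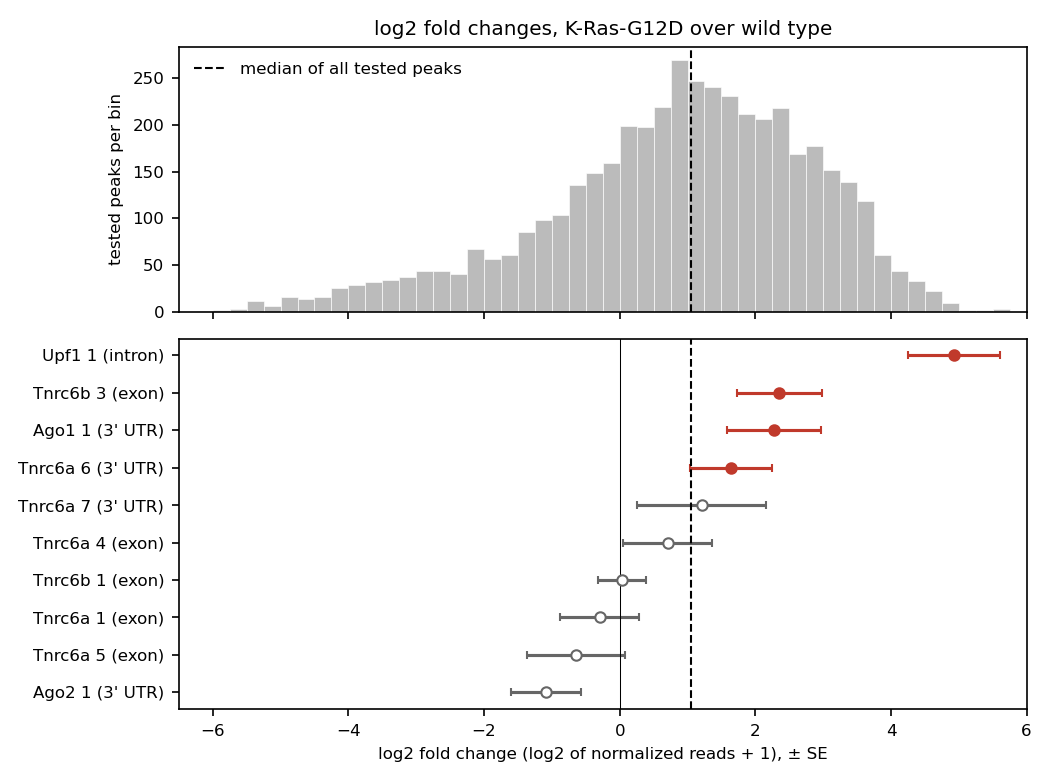
The upper panel counts all 4438 tested peaks by log2 fold change of G12D over WT, and the lower panel shows the 10 tested peaks of Upf1, Tnrc6 and Ago genes with their standard errors. Filled red points are called higher, open points are not called, and the dashed line is the median of all tested peaks at 1.05. The Upf1 peak lies in the right tail of all peaks and the Ago2 peak at -1.09.

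Tnrc6b, 1 of the 3 mammalian Tnrc6 scaffolds, held the strongest site per base of the 14, and that site did not pass the test between genotypes. Peak 1, in an exon at chr15:80798770-80798815 on the plus strand, had 153.8, 133.9 and 140.0 normalized reads in G12D libraries against 112.5, 113.0 and 212.7 in WT libraries. The highest value was thus in 1 WT library and the other WT libraries lay below all G12D libraries. The means were 143 ± 10.2 and 146 ± 57.7 normalized reads (SD, n = 3 each), which differ by less than the spread between WT libraries, with a log2 fold change of 0.03 (± 0.35 SE, limma adjusted p = 0.946). Per 100 bases of peak this is a level of 310 normalized reads in G12D and 318 in WT, against 171 and 5.52 at the Upf1 peak. By mean level per base the peak stood at percentile 97.9 of all merged peaks, tested or not, and the Upf1 peak at percentile 91.2. Set against the median of all tested peaks, the log2 fold change of Tnrc6b peak 1 was -1.02.

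This exon site carried an 8-mer match to the family of miR-17, miR-20, miR-93 and miR-106. Only some members of that family, miR-17 among them, belong to the miR-17-92 cluster, known as an oncogenic miRNA cluster. The site also carried a match to miR-103 and miR-107 and 6-mer matches to the families of miR-130 and of miR-148. Of 66 tested peaks with an 8-mer for the miR-17 family, 2 had a higher mean. Ago2-held miR-93-5p had 4086, 4035 and 3466 normalized reads in G12D libraries against 3772, 2960 and 3628 in WT libraries, which overlap (log2 fold change 0.17 ± 0.22 SE, limma adjusted p = 0.679), and 0 of 5 tested members of the family were called. Although WT had as many normalized reads here as G12D, the peak was not in the WT list.

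The other peaks of Tnrc6b lie 77666 bases downstream, 48 bases apart, and the second of them, peak 3, rose. Peak 3, in an exon at chr15:80876605-80876660, had 12.0, 25.2 and 34.5 normalized reads in G12D libraries against 2.12, 2.90 and 6.44 in WT libraries (7 WT reads in all). The genotypes do not overlap, at 23.9 ± 11.3 and 3.82 ± 2.30 normalized reads (SD, n = 3 each), and the peak was called higher, with a log2 fold change of 2.35 (SE 0.63, limma adjusted p = 0.00952). The call ended with reads thinned to the shallowest library (adjusted p = 0.116), without G12D library 2 (0.0649) and without G12D library 3 (0.0805), under limma, where the log2 fold change was between 2.04 and 2.47.

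Peak 3 of Tnrc6b carried an 8-mer match to miR-210-3p, a miRNA known to be induced by hypoxia. Its Ago2-held level was also higher, with 8987, 7577 and 7651 normalized reads in G12D libraries against 4346, 4930 and 4091 in WT libraries. Those groups do not overlap, and the log2 fold change was 0.86 ± 0.20 (SE, limma adjusted p = 0.00321). With every library set to the same total or without the variance trend, miR-210-3p was no longer called (limma adjusted p = 0.0602 and 0.0640). The middle peak of Tnrc6b, peak 2 at chr15:80876482-80876556, fell under the filter with 5.45, 7.63 and 6.46 normalized reads in G12D libraries against 0, 0 and 2.58 in WT libraries. It holds 51 G12D reads and 2 WT reads, a pooled rate ratio of 5.67 with a 95% counting interval of 1.49 to 48.1.

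The distribution of Tnrc6b reads over its 3 peaks, a share that does not depend on how a library is scaled, did not overlap between genotypes. Peak 1 held 82.5 ± 6.49% of the gene's peak reads in G12D and 97.2 ± 1.14% in WT (SD, n = 3 each), whereas peak 3 held 13.7 ± 6.14% and 2.42 ± 0.53%. Neither pair of groups overlaps, and the exact permutation test, two-sided, gave the smallest p that 3 against 3 libraries allow, 0.1 (0.2 adjusted over 12 shares). Summed over its peaks, Tnrc6b had 173 ± 7.29 normalized reads in G12D and 151 ± 61.4 in WT (exact permutation p = 0.4). The shares of WT libraries rest on 40 to 172 reads. Peaks 2 and 3 had WT means of 0.86 and 3.82 normalized reads and were called in the G12D list only, as was peak 1. That choice sets part of the direction of the shares, which are not independent of one another.

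**Figure D3:**
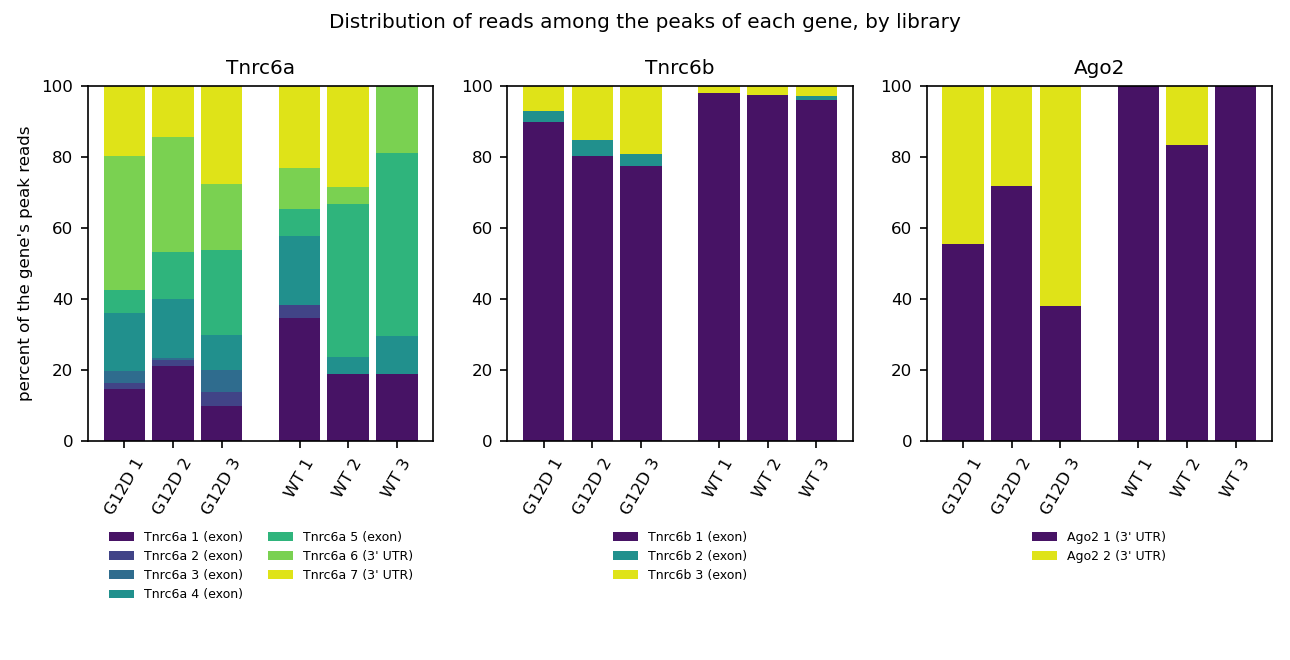
Percent of each gene's peak reads that lie in each of its peaks, per library, with the 3 G12D libraries left of the 3 WT libraries and peaks stacked by coordinate from the bottom. In Tnrc6b, peak 1 takes between 77.4% and 89.8% in G12D libraries and between 95.9% and 98.1% in WT libraries; in Ago2, peak 2 is at 0 in 2 WT libraries.

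Tnrc6a, another of the scaffolds, had the most peaks, spread over exons and the 3′ UTR, and only peak 6 was called. Peak 6, in the 3′ UTR at chr7:123193089-123193138 on the plus strand, had 25.1, 27.4 and 10.8 normalized reads in G12D libraries against 6.37, 2.90 and 9.02 in WT libraries. The lowest G12D library was just above the highest WT library. At 21.1 ± 9.02 and 6.10 ± 3.07 normalized reads (SD, n = 3 each), the log2 fold change was 1.64 ± 0.61 (SE, limma adjusted p = 0.0413), 0.59 above the median of all peaks. It lost its call under 8 of 17 alternatives, with adjusted p-values up to 0.279 under limma with quantile normalization.

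This 3′ UTR site carried 8-mer matches to 3 families. Of their most abundant members, miR-26a-5p was higher in G12D, at 18978 ± 1411 against 12435 ± 1244 normalized reads in WT (SD, n = 3 each; limma adjusted p = 0.0143). Likewise miR-374b-5p stood at 4550 ± 986 normalized reads in G12D and 2772 ± 346 in WT (limma adjusted p = 0.0284). The third, miR-23a-3p, was not called, at 3180 ± 369 and 2868 ± 539 normalized reads. Neither call was firm: of 16 alternatives, miR-26a-5p kept its call in 9 and miR-374b-5p in 8, and both lost it with the same total per library, quantile normalization, no variance trend, edgeR, DESeq2 and without G12D library 2.

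Only 23 bases further on, peak 7 of Tnrc6a at chr7:123193162-123193199 did not pass the test. It had 13.1, 12.2 and 15.8 normalized reads in G12D libraries against 12.7, 17.4 and 0 in WT libraries, so that 1 WT library at 0 set the log2 fold change of 1.21 ± 0.95 (SE, limma adjusted p = 0.301). Without that library it was -0.12. Its 8-mer match is to miR-652-3p, which was higher in G12D at 2219 ± 277 against 1297 ± 59.5 normalized reads in WT (SD, n = 3 each; limma adjusted p = 0.0283). That call was kept in 9 of 16 alternatives. It ended with the same total per library, the replicate number as a block, no variance trend, edgeR and without G12D library 2, G12D library 3 or WT library 3.

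The 5 exon peaks of Tnrc6a lie between chr7:123184158 and chr7:123192168, and none of the tested ones was called. Peak 1, with 8-mer matches to the miR-200 and miR-181 families, had 9.82, 17.9 and 5.75 normalized reads in G12D libraries against 19.1, 11.6 and 9.02 in WT libraries. The miR-200 family is known to hold epithelial cells in their state by repressing Zeb factors. Peak 4, with 8-mer matches to the seed of miR-141 and miR-200a and to miR-96-5p, had 10.9, 14.03 and 5.75 in G12D libraries against 10.6, 2.90 and 5.16 in WT libraries. Peak 5, with a 7-base match to miR-191-5p, had 4.36, 11.1 and 13.6 against 4.25, 26.1 and 24.5. All 3 overlap between genotypes, at log2 fold changes of -0.29, 0.70 and -0.64 and limma adjusted p-values of 0.688, 0.382 and 0.466.

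The remaining exon peaks of Tnrc6a were under the filter. Peak 2 had 1.09, 1.44 and 2.15 normalized reads in G12D libraries against 2.12, 0 and 0 in WT libraries and is the 1 peak of the 14 without an annotated seed match. Peak 3 had 2.18, 0.41 and 3.59 normalized reads in G12D libraries and was at 0 in all WT libraries, on 9 G12D reads. The neighbours 1 and 2, and likewise 3 and 4, lie 45 bases apart. Over all 7 peaks Tnrc6a had 69.5 ± 13.8 normalized reads in G12D and 54.6 ± 6.61 in WT (SD, n = 3 each; exact permutation p = 0.2). Peak 6 took 29.6 ± 9.78% of these reads in G12D and 11.7 ± 7.08% in WT, which overlap (exact permutation p = 0.2, 0.343 adjusted over 12 shares).

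Ago1, an Argonaute that like Ago2 binds miRNAs but lacks comparable slicing activity, had 1 peak, in its 3′ UTR at chr4:126438235-126438284 on the minus strand. It had 7.63, 13.4 and 10.1 normalized reads in G12D libraries against 2.12, 2.90 and 0 in WT libraries (86 reads in G12D and 2 in WT). The genotypes do not overlap, at 10.4 ± 2.90 and 1.67 ± 1.5 normalized reads (SD, n = 3 each). The log2 fold change was 2.27 ± 0.69 (SE, limma adjusted p = 0.0177), and the pooled rate ratio was 9.57 with a 95% counting interval of 2.57 to 80.3. The call was lost under 6 of 17 alternatives, quantile normalization with the highest adjusted p (0.306, limma) and a log2 fold change of 0.91.

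At the Ago1 peak the 8-mer match is to miR-182-5p and a shorter match to its cluster neighbour miR-96-5p, with the near-identical seeds shown above. Ago2-held miR-182-5p had 557, 696 and 563 normalized reads in G12D libraries against 329, 393 and 301.4 in WT libraries. These do not overlap, as for 29.5% of tested miRNAs, but the log2 fold change of 0.83 ± 0.30 (SE, limma adjusted p = 0.0526) missed the threshold. The values of miR-96-5p overlapped, at 830 ± 90.9 and 801 ± 311 normalized reads (SD, n = 3 each).

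Ago2, the slicing Argonaute and the protein that was captured, had 2 peaks in its 3′ UTR on the minus strand, 410 bases apart, and neither was called. The tagged allele is present in both genotypes, and the reads here are RNA of the Ago2 gene held by the protein. Peak 1, the one nearer the 3′ end, at chr15:73102793-73102894, had 10.9, 6.81 and 5.75 normalized reads in G12D libraries against 16.98, 14.5 and 20.6 in WT libraries. All G12D libraries were below all WT libraries, as for 15.2% of tested peaks, at 7.82 ± 2.73 and 17.4 ± 3.08 normalized reads (SD, n = 3 each). The log2 fold change of -1.09 ± 0.52 (SE, limma adjusted p = 0.09999), or -2.14 set against the median of all tested peaks, did not pass. It passed as lower under quantile normalization (limma adjusted p = 0.00853), edgeR (0.0187) and DESeq2 (0.0268), 3 alternatives that all moved the median of all peaks towards 0.

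Peak 2 of Ago2, at chr15:73103305-73103357, was under the filter, with 8.72, 2.68 and 9.34 normalized reads in G12D libraries against 0, 2.90 and 0 in WT libraries. One WT read lifted that library above the lowest G12D library, so the genotypes overlap. Of the gene's peak reads, peak 1 held 55.1 ± 16.8% in G12D and 94.4 ± 9.62% in WT (SD, n = 3 each). These do not overlap, at the smallest possible exact permutation p of 0.1 (0.2 adjusted over 12 shares), and the WT libraries had 6 to 16 reads in the gene. The shares of the 2 peaks are complements. Peak 2 had a WT mean of 0.97 normalized reads and was called in the G12D list only, as was peak 1, which sets part of this direction. Neither Ago2 peak had an 8-mer match: peak 1 carried a 6-mer match to miR-27 and peak 2 a 7-base match to miR-185-5p and a 6-mer match to miR-21. Both 6-mer families were among the most abundant on Ago2 and were higher in G12D, with miR-21a-5p at 37519 ± 2513 against 22676 ± 3202 normalized reads in WT and miR-27a-3p at 26942 ± 1743 against 12984 ± 4530 in WT (SD, n = 3 each; limma adjusted p = 0.00159 and 5.6e-05). Neither passed without the variance trend, and miR-21a-5p did not pass with quantile normalization (log2 fold change 0.073, limma adjusted p = 0.766).

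**Figure D4:**
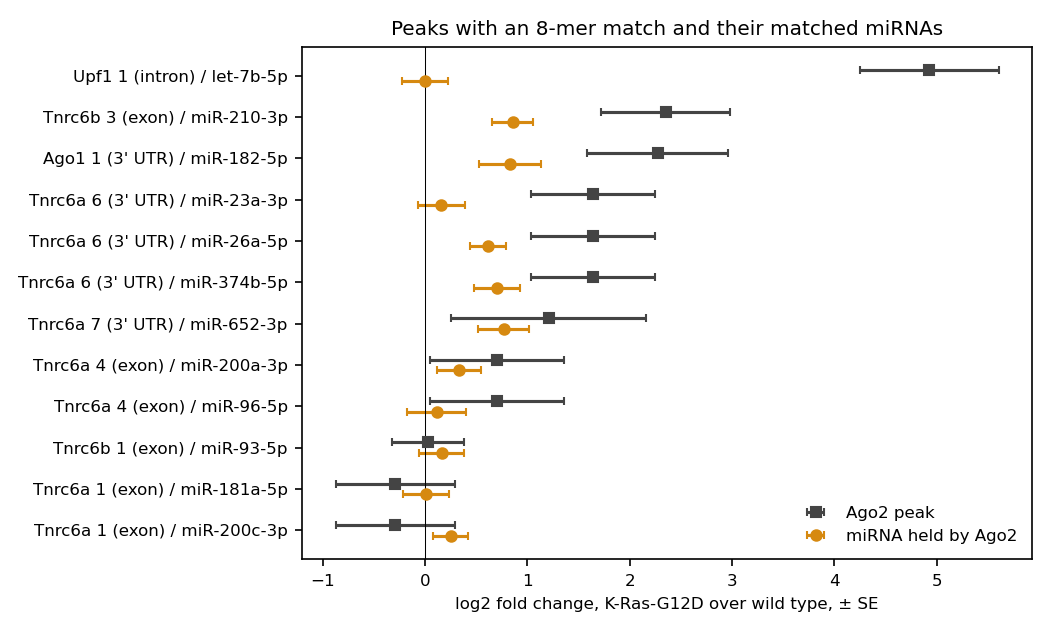
Each tested peak with an 8-mer match (grey squares) beside the most abundant miRNA of the matched family on Ago2 (orange circles), as log2 fold changes of G12D over WT with standard errors. A peak with several matches has 1 line per family. The Upf1 peak stands at 4.93 and let-7b-5p at -0.0028, whereas Tnrc6b peak 3 stands at 2.35 and miR-210-3p at 0.86.

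Over all 27 seed families annotated at the 14 peaks, the most abundant miRNA was called higher for 7 and lower for 0. Among the 12 families with an 8-mer match at a tested peak, 4 were called higher: miR-210-3p, miR-26a-5p, miR-374b-5p and miR-652-3p. The background over all tested miRNAs was 9.06% higher, but the miRNAs named here are the most abundant of their families and the background holds scarce ones, so the shares are not like for like. The miRNA and peak libraries were scaled separately, so their fold changes are set side by side only.

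In the authors' deposited table of differential peaks, 49.1% of 5554 peaks have an adjusted p-value under 0.05. The authors' deposited table gives the Upf1 peak a log2 fold change of 4.88 (adjusted p = 4.19e-08, DESeq2). For the others called here, the authors' deposited table gives 2.53 for Tnrc6b peak 3, 3.01 for Ago1 and 1.69 for Tnrc6a peak 6, with adjusted p-values of 0.0065, 0.0261 and 0.0403 from DESeq2. Peak 2 of Ago2, not tested here, passes in the authors' deposited table at 3.21 (adjusted p = 0.0471, DESeq2).

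By profile over the 6 pulldown libraries, the tested peaks most like that of Upf1 were an exon peak of Lgals3bp, a 3′ UTR peak of Slc36a1 and an intron peak of Sgpp2. The measure was the root mean square difference of log2(normalized reads + 1) after centring each peak on its own mean, and it was 0.54, 0.54 and 0.57 among 4352 peaks compared. The Lgals3bp peak also carried a let-7 8-mer and a miR-196 6-mer, whose seeds share the bases AGGUAG. No let-7 match was annotated at the Slc36a1 or Sgpp2 peak. The Slc36a1 peak carried 7-base matches to miR-19 and the miR-17 family, and the Sgpp2 peak an 8-mer match to miR-23. Most like Tnrc6b peak 1 were an exon peak of the noncoding RNA Malat1 at 0.14, a 3′ UTR peak of Espn at 0.16 and an exon peak of Chd4 at 0.16, among 4351 peaks. The log2 fold changes of these 3 lay between -0.15 and 0.05, and each had the other sign under at least 1 scaling.

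The wider pathway was described with 5 gene lists. For microRNA biogenesis, 13 peaks of 7 genes were tested, 6 were called higher and 0 lower, with a median log2 fold change of 1.62. That is 46.2% higher, near the 36.2% of all tested peaks (12.7% lower), so the count says little about the list. The list also holds genes that act on Argonaute, of which Csnk1a1 gave 2 of the calls and Hspa8 1. An intron peak of Dgcr8, the partner of Drosha in cutting primary miRNAs, had 147 reads in G12D and 0 in WT, at least 10.9-fold higher against a floor of 3 counts over the WT group. An exon peak of Hspa8, a chaperone that helps load Argonaute, had 126 ± 23.9 normalized reads in G12D and 11.5 ± 5.52 in WT (SD, n = 3 each; log2 fold change 3.42, limma adjusted p = 0.000232). Csnk1a1, a casein kinase that phosphorylates Argonaute in human cells, had the highest mean of the list, 222 ± 90.0 and 40.7 ± 28.3 normalized reads (limma adjusted p = 0.00371). Dicer1, which cuts precursor miRNAs, had 2 tested peaks and 0 calls.

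The effectors that act with Tnrc6, the deadenylases and their partners, had 38 tested peaks of 11 genes, of which 18 were called higher and 1 lower (47.4% and 2.63%, against 36.2% and 12.7% of all tested peaks), at a median of 1.34. Of these, 20 peaks belong to Btg2, an antiproliferative gene whose protein binds the CCR4-NOT deadenylases, and 15 of its peaks were called higher, so that the other 18 peaks of the list held 3 such calls. Its 3′ UTR peaks with the widest differences had 219, 226 and 168 reads in G12D against 1, 2 and 3 in WT. By mean normalized reads, which allow for depth, G12D was 27.5, 17.4 and 8.98 times WT. The third of these peaks kept its call in 15 of 17 alternatives. The Btg2 peak with the highest mean had 88.1 ± 7.26 normalized reads in G12D and 39.4 ± 5.26 in WT (SD, n = 3 each), and its log2 fold change, 1.15, was close to the median of all peaks (limma adjusted p = 0.0139). Outside Btg2 and Btg1, peaks of Cnot6l and Paip1 were called higher, and no peak of Cnot1, Cnot4, Cnot6, Cnot7, Tob1 or Eif4e2 was called. The peak called lower was a 3′ UTR peak of Gigyf1, a relative of the Eif4e2 partner Gigyf2, at 17.97 ± 9.24 normalized reads in G12D and 56.5 ± 3.996 in WT (SD, n = 3 each; log2 fold change -1.71, limma adjusted p = 0.00753).

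Decapping and exonuclease genes had 6 tested peaks of 4 genes, with 1 called higher (16.7%, against 36.2% of all tested peaks), 0 lower (against 12.7%) and a median of 0.86. The call was a 3′ UTR peak of Ddx6, a helicase that links CCR4-NOT to decapping, with 52.2 ± 8.46 normalized reads in G12D and 7.92 ± 7.87 in WT (SD, n = 3 each; log2 fold change 2.92, limma adjusted p = 0.00215) and an 8-mer match to miR-194-5p. The exon peak of Ddx6 with the highest mean overlapped between genotypes, at 112 ± 78.8 and 40.6 ± 25.2 normalized reads. Beside Upf1, the nonsense-mediated decay and exon junction list had 4 tested peaks of 3 genes, with 2 called higher, 0 lower and a median of 0.86, too few to set against those shares. These were an exon peak of Casc3, an exon junction protein, with 73 reads in G12D and 0 in WT (at least 5.41-fold higher against the same floor), and a 3′ UTR peak of Etf1, the termination factor, at 50.3 ± 17.1 normalized reads in G12D and 15.1 ± 7.0002 in WT (SD, n = 3 each; limma adjusted p = 0.00935).

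RNA-binding proteins of 3′ UTRs had 22 tested peaks of 11 genes, of which 10 were called higher and 2 lower, at a median of 1.36. These are 45.5% and 9.09%, near the 36.2% and 12.7% of all tested peaks. Zfp36, which brings AU-rich RNAs to the deadenylases, gave 8 of these and 5 calls, and its exon peak with the highest mean had 357 ± 50.3 normalized reads in G12D and 68.7 ± 8.19 in WT (SD, n = 3 each; log2 fold change 2.36, limma adjusted p = 0.000291). A 3′ UTR peak of the stress granule protein gene G3bp2 had 204 reads in G12D and 0 in WT, at least 15.1-fold higher against that floor. The peaks called lower were an exon peak of Fxr2, a relative of the fragile X protein, and a 3′ UTR peak of Celf1. Another peak of Celf1 was called higher (log2 fold change 2.16, limma adjusted p = 0.0202). The call of the lower Celf1 peak was kept in 10 of 17 alternatives. The Fxr2 peak, called in the WT list only, had 2.54 ± 2.25 normalized reads in G12D and 40.8 ± 27.2 in WT (SD, n = 3 each; limma adjusted p = 0.00226).

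**Figure D5:**
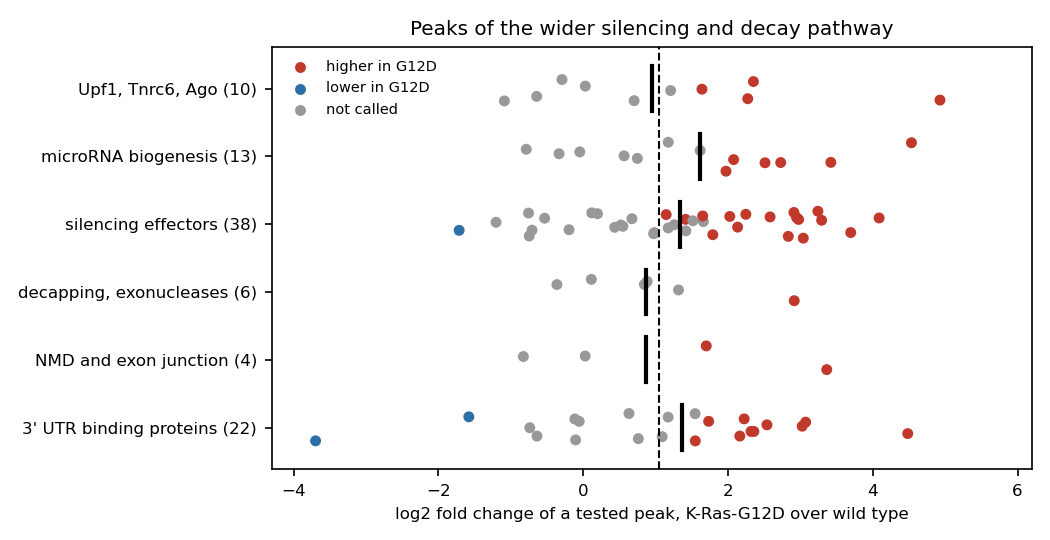
log2 fold changes of G12D over WT for the tested peaks of Upf1, Tnrc6 and Ago genes and of the 5 wider lists, 1 point per peak, with the number of tested peaks in brackets. Short bars are list medians and the dashed line is the median of all tested peaks at 1.05; the Upf1 peak at 4.93 is the highest point shown and the Fxr2 peak at -3.70 the lowest.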

How the data were processed

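Reads were aligned with STAR 2.5.2b and DESeq2 was used, on builds mm10 and GRCm38, per the submitters' processing notes; the peak caller is not given in the sources used here. The deposited tables hold a signal of normalized reads per merged peak or per miRNA, and 100.0% of values above 0 in each of the 12 libraries were whole reads within 0.01 of a read after division by 1 factor per library. The deposited tables of differences give the authors' log2 fold changes and the authors' p-values, per the file headers, and the deposited peak lists the authors' score, which is not used in the text. Peak classes, gene labels and seed matches are the authors'. Peak columns were taken as the pulldown mRNA libraries by their genotype code and number. No column of per-sample values was left unused (0).

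The main test was limma 3.58.1 (R 4.3.3) with a variance trend on log2(normalized reads + 1), a scale that understates changes of low features, for peaks with a mean of at least 5 and miRNAs with at least 10 normalized reads, with Benjamini-Hochberg adjustment over all tested. The fit was also run on simulated counts with as many raised as lowered features and no shift over all features. The peaks here have such a shift, so that run does not vouch for their calls. Shares and sums per gene were compared with exact permutation tests (SciPy 1.17.1), and pooled reads with exact 95% intervals, which cover counting error only. Where a whole genotype had 0 reads, 3 counts stood in for it. Alternatives included edgeR 4.0.16 (quasi-likelihood test, TMM) and DESeq2 1.42.0 on the recovered reads; thinning of the reads and centring on peaks in both genotype lists were added after the data were seen.

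Peaks were chosen by gene label, and the members and lists were chosen with earlier results of these data known. All 14 peaks are accounted for. From each list were named up to 3 called peaks per direction with the largest log2 fold change and no overlap between genotypes, and the peak with the highest mean. From each seed family came the miRNA with the highest mean, with alternatives run where the family had an 8-mer or its miRNA was called, a limit chosen for brevity after seeing the values. The 3 peaks most like the Upf1 peak and Tnrc6b peak 1 were named by profile. Of 459 deposited miRNAs 408 were matched to RefSeq by name, and of the 27 families at these peaks 24 had a sequence. Replicate numbers were not used to pair the libraries in the main test.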

Additional observations from a re-analysis of the deposited data

How the results depend on the processing

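The Upf1 peak was called higher in 18 of 18 alternatives, with log2 fold changes of 3.65 to 5.58. Of the other called peaks, Tnrc6b peak 3 kept its call in 14 of 17, Ago1 in 11 of 17 and Tnrc6a peak 6 in 9 of 17. The number of called peaks among the 14 was 7 without a filter, 1 with the filter raised to 20 normalized reads (2 tested), 2 with thinned reads and between 1 and 3 when 1 library was left out (1 without G12D library 2, 2 without G12D library 3). Over all peaks, 2170 were called, 790 with that filter and between 1410 (without G12D library 2) and 2275 without 1 library. Calls split into 1607 higher and 563 lower as deposited, 873 and 802 with quantile normalization, 1093 and 894 with edgeR, and 1130 and 771 with DESeq2, so the share called higher rests on the scaling. Over all miRNAs, 40 were called, 18 without the variance trend and between 20 (without WT library 3) and 56 without 1 library; 6 were higher and 31 lower with the same total per library, against 23 and 17. Of the 16 alternatives for each miRNA, miR-26a-5p kept its call in 9, miR-374b-5p in 8, miR-652-3p in 9 and miR-210-3p in 14. The causes were not tested.

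With the replicate number as a block, 2220 peaks, 4 of the 14 peaks and 25 miRNAs were called. Same-numbered libraries correlated at 0.0415, -0.0357 and -0.0076 for peaks and -0.000309, -0.422 and -0.318 for miRNAs. These values show no sign of a pairing by number, but so few libraries cannot exclude it. Under the block miR-374b-5p and miR-652-3p were not called.

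Values that changed sign were all uncalled ones. Thinned reads gave 0.048 for Tnrc6a peak 1, 0.45 for Tnrc6a peak 5, 0.27 for Malat1 and -0.26 for Chd4. Centring on peaks in both lists gave 0.026 for Tnrc6a peak 1, 0.30 for Malat1 and 0.18 for Espn. Quantile normalization gave -0.57 for Tnrc6a peak 4, -1.21 for Chd4, -0.079 for miR-93-5p, -0.13 for miR-200a-3p, -0.29 for miR-200c-3p, -0.18 for miR-181a-5p and -0.045 for miR-23a-3p. The same total gave 0.15 for Malat1, 0.035 for Espn, -0.20 for miR-93-5p, -0.033 for miR-200a-3p, -0.25 for miR-96-5p, -0.11 for miR-200c-3p, -0.36 for miR-181a-5p and -0.20 for miR-23a-3p. With edgeR, Tnrc6b peak 1 was at -0.58, Chd4 -0.55, miR-93-5p -0.042, miR-96-5p -0.13, miR-181a-5p -0.17 and miR-23a-3p -0.052; with DESeq2, Tnrc6b peak 1 was at -0.37, Chd4 -0.36, miR-96-5p -0.000569 and miR-181a-5p -0.023. Without 1 library, the range was -0.68 to 0.070 for Tnrc6a peak 1, -0.12 to 1.98 for Tnrc6a peak 7, -0.12 to 0.33 for Tnrc6b peak 1, -0.17 to 0.17 for Malat1, -0.39 to 0.28 for Espn, -0.10 to 0.27 for Chd4, -0.19 to 0.15 for let-7b-5p, -0.10 to 0.41 for miR-96-5p and -0.12 to 0.18 for miR-181a-5p. The G12D minus WT difference in share of Tnrc6a reads ranged from -0.69 to 6.54 points for peak 4 and from -5.30 to 8.98 points for peak 7.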
